A study of Mus musculus with 9 samples.

Results

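The set described here comprises 39 lysosomal genes out of 53801 in the count files: 12 hydrolases, 3 soluble proteins that are not enzymes, 5 membrane proteins, 3 transcription factors of lysosomal genes and 16 genes of the vacuolar proton pump (V-ATPase), with the cathepsins set aside. The members were given as a list of names, and all 39 were matched to the files through their Ensembl identifiers. Monocytes/macrophages had been sorted as CD11c-Ly6G-CD11b+CD45high cells from male C57BL/6J mice that were 9 weeks old. In the stroke groups the distal middle cerebral artery and the common carotid artery on the left side were permanently occluded (dMCAO), and cells were taken from blood and from the ipsilesional hemisphere 5 days later. The sham blood group came from sham-operated mice, for which the day is not given in the sources used here. Each group held 3 libraries; a blood library came from 1 mouse, and a brain library was a pool of 5 mice.

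Lysosomes are acidic organelles in which soluble hydrolases break down proteins, glycans, lipids and nucleic acids taken up from outside the cell or delivered by autophagy. The acid is supplied by the V-ATPase, in which the cytosolic V1 sector hydrolyses ATP and turns a rotor that drives protons through the membrane-bound V0 sector. TFEB, TFE3 and MITF are transcription factors that bind E-box elements near the start of many lysosomal genes, and phagocytes such as macrophages depend on this system to digest engulfed cells.

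Values are normalised read counts (CPM), scaled to the TMM-corrected total of each library, and comparisons were tested with edgeR's quasi-likelihood test, with Benjamini-Hochberg adjustment over all genes tested. A gene is said to have risen or fallen at an adjusted p below 0.05, and is called a DEG where its log2 fold change also exceeded 1 in either direction. Libraries held between 18475118 and 22623578 counts, at which the detection floor used here, 3 counts, corresponds to 0.125 to 0.180 CPM. The macrophage marker Csf1r was present in every library. All 9 microglia markers examined, which include Tmem119, P2ry12 and Sall1, were called higher in the brain than in stroke blood. For 3 of them, which had no count in stroke blood, the genes had to differ and the call supports nothing. Over all genes tested in this comparison, 17.5% rose and 13.1% fell. The 9 markers summed to 805, 1268 and 2715 CPM in brain replicates 1, 2 and 3, against 38.6 to 57.3 CPM in stroke blood and 27.1 to 95.7 CPM in sham blood. The summed level of 6 dendritic cell markers, of which Siglech is also in the microglia list, was 605 to 695 CPM in the brain and 92.6 to 215 CPM in stroke blood. Itgax, which encodes CD11c, and Ly6g mark cells that the gate left out. Their sum was 74.1 to 129 CPM in the brain and 11.8 to 20.5 CPM in stroke blood, and only 1 of them was tested, which rose. Itgam and Ptprc encode CD11b and CD45, which the gate required. Their sum was 1072 to 1234 CPM in the brain and 1445 to 1935 CPM in stroke blood, and 1 of the 2 fell. Border-associated macrophage markers (3 of 3 tested rose, 51.4 to 175 CPM against 15.2 to 25.97 CPM) and neutrophil markers (6 of 8 rose and 1 fell, 725 to 1117 CPM against 467 to 790 CPM) were also higher, and of 6 monocyte/macrophage markers 3 fell, with sums of 40421 to 46610 CPM against 102318 to 108941 CPM. Platelet and erythroid markers moved the other way, with 6 of 6 fallen in each list, and sham blood replicate 1 stood apart from the other sham libraries with an erythroid sum of 1248 CPM against 33799 and 31060 CPM. Sham blood replicate 3 stood apart with a neutrophil sum of 3022 CPM against 729 and 921 CPM, and of 8 T, NK and B cell markers 2 rose in the brain. The part of these marker genes in the results below was not tested, and in bulk libraries fewer cells of a type and less RNA per cell cannot be told apart.

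Cells from the poststroke brain were compared with stroke blood to ask which lysosomal genes differ between the cells sorted from each. Per the study, this gate could not separate activated resident microglia from monocyte-derived macrophages. Brain tissue was dissociated with a kit and a heated device and fractionated on Percoll, whereas blood was fractionated in Ficoll. Cell origin, tissue and preparation therefore cannot be told apart in this comparison. All 39 members passed the filter on low counts; Atp6v0d2 did so only through the brain libraries, since it had no count in stroke blood, so it had to differ and its test supports nothing here. Of the other 38 members, 8 rose (21.1%) and 3 fell (7.89%), while 17.5% of the 13189 genes tested rose and 13.1% fell. Among these 38, 3 were DEGs (7.89%), all of them higher in the brain (Cd63, Gla and Atp6v1c1), against 13.1% of all genes that were DEGs upward and 7.86% downward. At an unadjusted p below 0.05 there were 16 of the 38, where 42.2% of all genes passed. The libraries of the groups did not overlap at 13 of the 38 that were higher and 7 that were lower in the brain, where 24.9% and 23.2% of all genes did the same. The median log2 fold change of the 38 was 0.13 and that of all genes 0.06. The share that rose was near that of all genes, and the shares that fell or were DEGs were below it, each resting on few members. The count depended on the scaling of the libraries. With library size alone, which raised the median of all genes by 0.15 on the log2 scale, 15 of the 39 members rose and 1 fell, beside 2896 and 1287 of the 13189 genes, and with upper-quartile scaling, which lowered it by 0.15, 7 rose and 6 fell, beside 1919 and 2303 genes. These counts include Atp6v0d2.

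**Figure D1:**
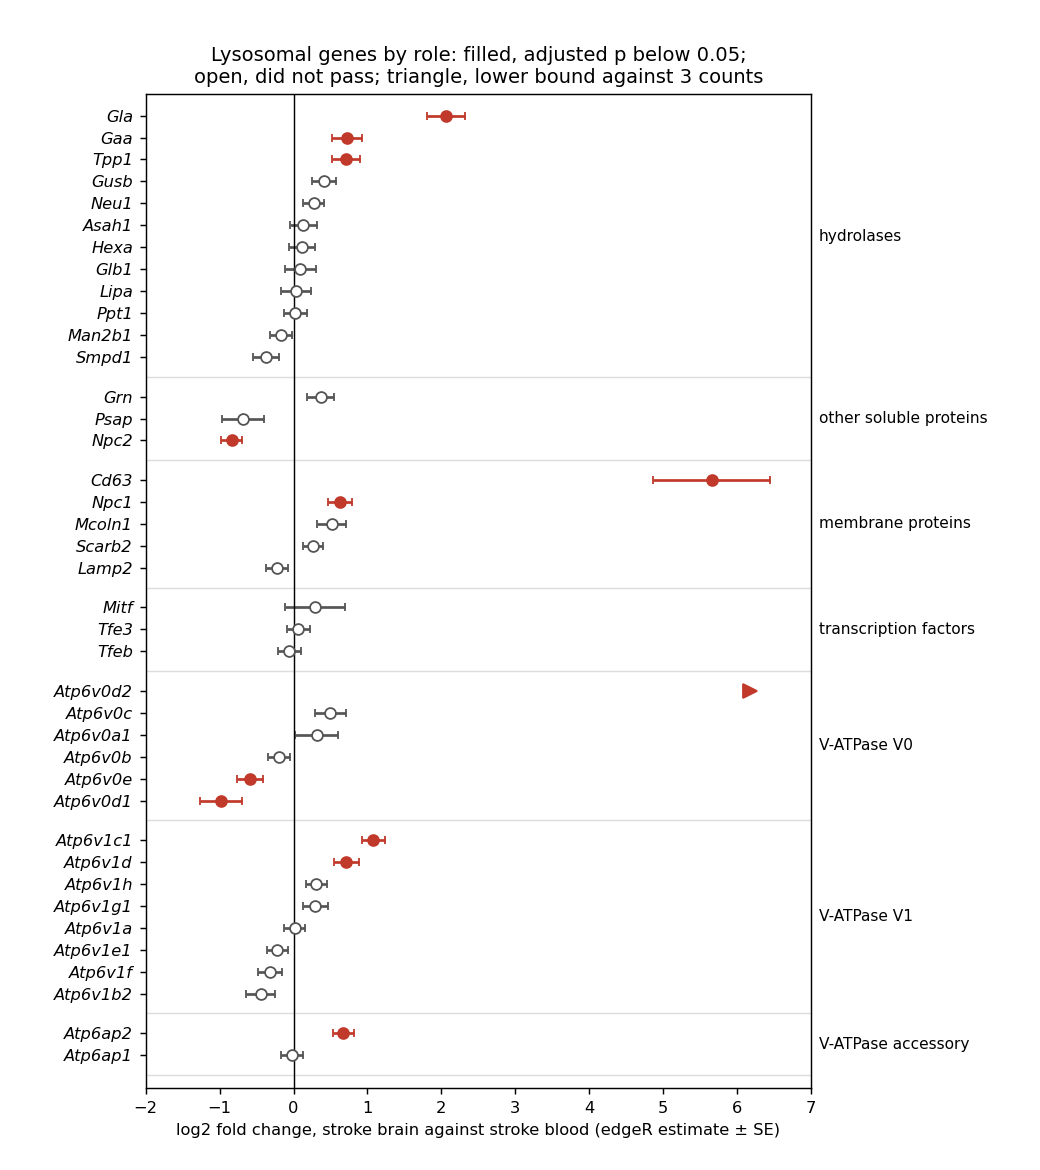
Log2 fold change of each of the 39 genes between stroke brain and stroke blood, as edgeR's estimate with its standard error on the horizontal axis, grouped by role; filled points passed an adjusted p of 0.05 and open points did not. Most genes lie near 0, and Cd63 at 5.65 and Gla at 2.06 stand far to the right, with Atp6v0d2 drawn as a triangle at its lower bound of 6.17, for which no test is given.

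Among the 12 hydrolases 3 rose, none fell and 9 did not pass the test. Gla encodes alpha-galactosidase A, which trims terminal galactose from glycolipids (ENSMUSG00000031266, GRCm38 chromosome X:134588149-134601125, minus strand). Its level was 63.9, 56.2 and 54.9 CPM in the brain, 20.2, 11.1 and 11.6 CPM in stroke blood and 17.4, 17.7 and 17.1 CPM in sham blood. Every brain library was higher than every blood library, and the log2 fold change against stroke blood was 2.06 ± 0.26 (SE; edgeR adjusted p = 0.000496), a 4.18-fold difference. Without any 1 of the 6 libraries it ranged from 1.87 to 2.36 and stayed past the threshold. The brain library with the lowest sum of microglia markers, replicate 1, had the highest Gla level, and the part of microglia in that level was not tested.

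Gaa, the acid alpha-glucosidase that degrades glycogen, and Tpp1, a peptidase that removes tripeptides from the ends of proteins, rose by less. Gaa was at 94.4, 110 and 150 CPM in the brain and at 67.2, 85.7 and 66.2 CPM in stroke blood (log2 fold change 0.72 ± 0.21, edgeR adjusted p = 0.0277). Tpp1 was at 216, 228 and 323 CPM in the brain and at 143, 159 and 179 CPM in stroke blood (0.71 ± 0.19, edgeR adjusted p = 0.0188). In both genes the groups did not overlap, and brain replicate 3, which had the highest sum of microglia markers, was the highest library. The call of Gaa was lost without stroke blood replicate 1 or 3 or brain replicate 2 or 3 (edgeR adjusted p from 0.0564 to 0.119) and under upper-quartile scaling (0.0578), and that of Tpp1 without stroke blood replicate 1 or 2 or brain replicate 3 (0.0557 to 0.0955).

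The other 9 hydrolases had log2 fold changes between -0.37 and 0.41. Gusb (beta-glucuronidase) was at 0.41, Neu1 (the sialidase neuraminidase 1) at 0.27, Asah1 (acid ceramidase) at 0.13 and Hexa (the alpha subunit of beta-hexosaminidase) at 0.12. Near 0 were Glb1 (beta-galactosidase) at 0.09, Lipa (lysosomal acid lipase, which frees cholesterol from its esters) at 0.03 and Ppt1 (a thioesterase that removes palmitate from proteins) at 0.03, while Man2b1 (alpha-mannosidase) was at -0.17. The signs of Hexa, Asah1, Glb1, Lipa and Ppt1 turned under upper-quartile scaling, and that of Ppt1 also with the RLE scaling. Smpd1, the acid sphingomyelinase, had the lowest value of the hydrolases. It was at 34.5, 36.1 and 37.5 CPM in the brain, 46.6, 53.3 and 43.0 CPM in stroke blood and 50.3, 57.6 and 65.8 CPM in sham blood. Its difference of -0.37 ± 0.17 from stroke blood did not pass (edgeR adjusted p = 0.134), though it did under upper-quartile scaling (edgeR adjusted p = 0.0425). The brain libraries lay below all 6 blood libraries.

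The 3 soluble proteins that are not enzymes assist lipid breakdown or traffic with the hydrolases. Npc2, which binds cholesterol and hands it to NPC1, was at 679, 716 and 743 CPM in the brain and at 1290, 1171 and 1452 CPM in stroke blood. It fell by 0.84 ± 0.14 on the log2 scale (edgeR adjusted p = 0.00244), with no overlap, and the call held without any 1 library. Its sham blood libraries, at 1207, 959 and 756 CPM, spanned much of the space between. Psap, the precursor of the saposins that present lipids to hydrolases, had the highest level per kilobase of exon of the 39 genes in each group. It was at 3184, 1611 and 3653 CPM in the brain and 3885, 5066 and 4913 CPM in stroke blood, without overlap. The difference of -0.68 ± 0.28 did not pass with edgeR and TMM scaling (adjusted p = 0.0945). It did pass with edgeR under upper-quartile scaling (adjusted p = 0.0485) and with DESeq2 (adjusted p = 0.0459). Brain replicate 2 was far below the other brain libraries for this gene. Grn, the gene of progranulin, was at 1611, 2082 and 2479 CPM in the brain and 1466, 1566 and 1868 CPM in stroke blood, ranges that overlapped (0.37 ± 0.19, edgeR adjusted p = 0.165).

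Of the 5 membrane proteins 2 rose (40.0%) and none fell, where 17.5% of all genes rose and 13.1% fell. Cd63 encodes a tetraspanin of late endosomes, lysosomes and secreted vesicles (ENSMUSG00000025351, chromosome 10:128900989-128912822, plus strand). It was at 208, 222 and 363 CPM in the brain, 1.12, 12.4 and 2.15 CPM in stroke blood and 5.17, 6.66 and 14.2 CPM in sham blood. The lowest brain library was far above the highest blood library, and the log2 fold change against stroke blood was 5.65 ± 0.79 (edgeR adjusted p = 0.000900), about 50.3-fold. The size of the difference depended on stroke blood replicate 2, which held most of the group's Cd63. Without it the log2 fold change was 7.35, and without any other single library it lay between 5.16 and 5.79. In the brain libraries Cd63 had the same order as the summed microglia markers, and the part of microglia in its level was not tested. A near-identical copy, Cd63-ps, held at most 16 counts in any library, where Cd63 had 22 to 8326.

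Npc1, the membrane partner of NPC2 in cholesterol export, was at 79.8, 94.95 and 95.9 CPM in the brain and 55.2, 55.0 and 68.6 CPM in stroke blood (0.63 ± 0.16, edgeR adjusted p = 0.0171). The groups did not overlap, but the call was lost without stroke blood replicate 1 or 2 or brain replicate 2 or 3 (edgeR adjusted p from 0.0557 to 0.0930) and under upper-quartile scaling (0.0505). Its exons overlap those of Rmc1 on the opposite strand, and since the strand setting of the counting is not given in the sources used here, its level is uncertain. The same holds for opposite-strand overlaps of Hexa, Ppt1, Grn, Atp6v0b, Atp6v1e1 and Atp6v1h. Glb1 overlaps Tmppe on the same strand. Mcoln1, the lysosomal calcium channel TRPML1, was at 0.52 ± 0.19 (edgeR adjusted p = 0.0730), and Scarb2, which carries glucocerebrosidase to the lysosome as LIMP-2, at 0.27 ± 0.13 (edgeR adjusted p = 0.161). Lamp2, one of the abundant glycoproteins of the lysosomal membrane, had the lowest value. It was at 569, 601 and 630 CPM in the brain and 752, 764 and 637 CPM in stroke blood, below it without overlap, though the difference of -0.23 ± 0.15 did not pass (edgeR adjusted p = 0.273).

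**Figure D2:**
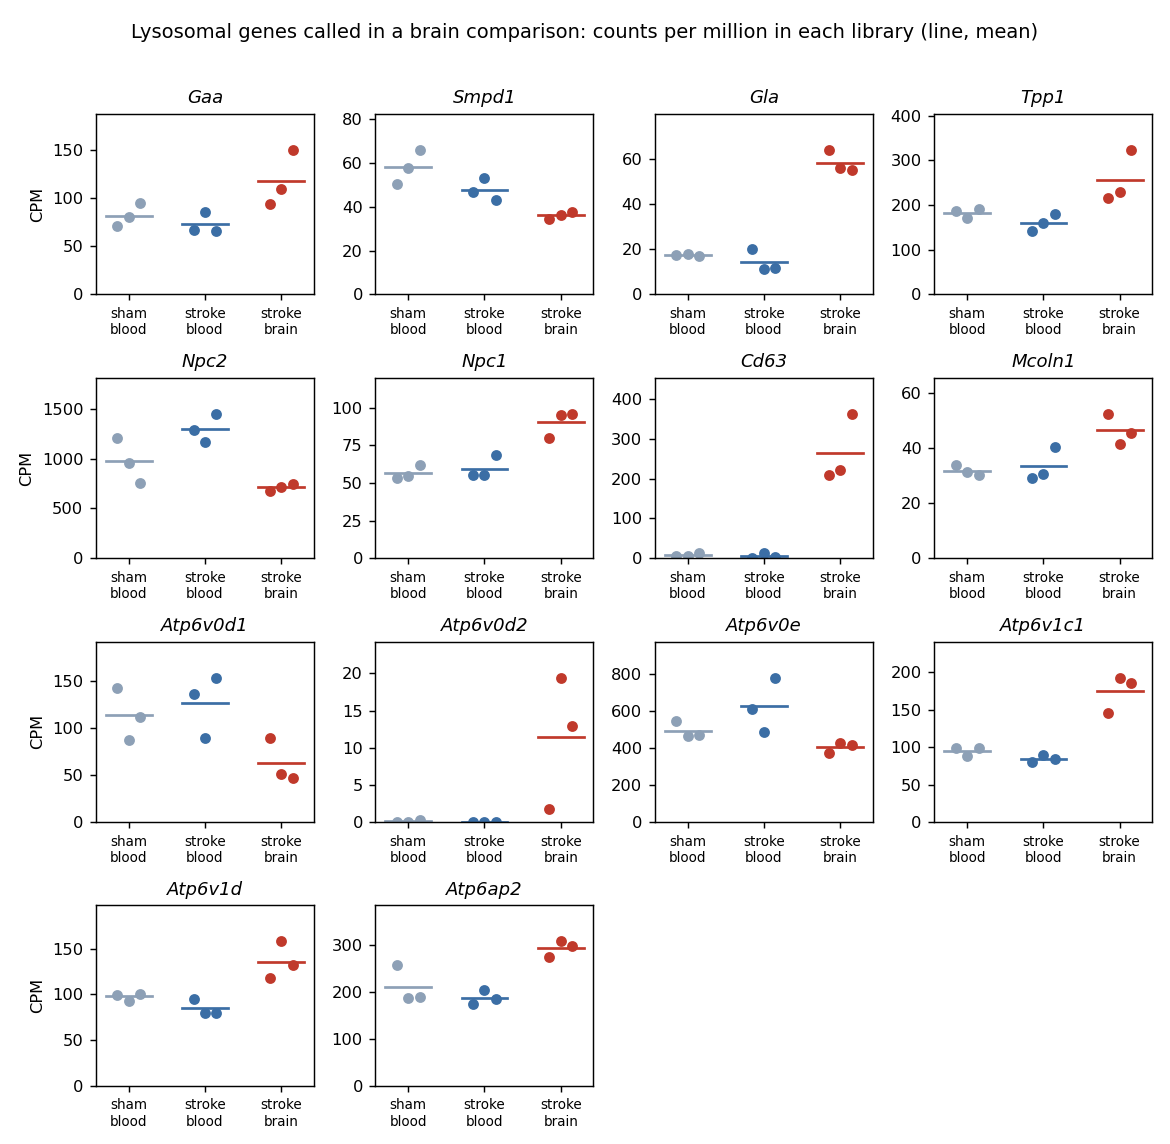
CPM in each library for the 14 genes past the threshold, Atp6v0d2 included, in a comparison of the brain with stroke or sham blood; points are libraries, lines are group means and each vertical axis starts at 0. Gla, Cd63 and Atp6v1c1 separate the brain from all blood libraries, whereas Gaa, Tpp1 and Mcoln1 differ by less and Atp6v0d2 varies from 1.80 to 19.4 CPM among the brain libraries.

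Of the 16 V-ATPase genes, Atp6v0d2 was present only through the brain, and of the other 15, 3 rose, 2 fell and 10 did not pass. The largest difference was in subunit d, the V0 subunit that couples the rotor to the proton-carrying ring and has isoforms d1 and d2. Atp6v0d2 (ENSMUSG00000028238, chromosome 4:19876841-19922605, minus strand) was at 1.80, 19.4 and 12.98 CPM in the brain (37, 468 and 298 counts) and had 0 counts in all stroke blood libraries, where 3 counts would be 0.142 to 0.180 CPM. Sham blood held 0, 1 and 5 counts. Against 3 counts per library its mean in the brain was at least 72.1-fold higher than in stroke blood, given without a test because the gene passed the filter through the brain alone, and brain replicate 1 lay well below the other brain libraries. Atp6v0d1 went the other way, from 136, 89.9 and 154 CPM in stroke blood to 89.6, 50.7 and 46.9 CPM in the brain, and fell by 0.98 ± 0.28 on the log2 scale (edgeR adjusted p = 0.0279). Its groups did not overlap, by a margin of 89.6 against 89.9 CPM, and the call was lost with library size alone (edgeR adjusted p = 0.0548) and without stroke blood replicate 1 or 3 or brain replicate 2 or 3 (0.0857 to 0.103).

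Per kilobase of exon, Atp6v0d2 made up 1.31%, 20.2% and 15.4% of the d subunit transcripts in the brain libraries, 12.3% ± 9.82 (SD, n = 3). In sham blood it was at most 0.164% and in stroke blood 0. Atp6v0d1 was the main d isoform in every library. Tcirg1, the a3 isoform of the large V0 subunit, accounted for 64.5% ± 3.86 (SD, n = 3) of the a subunit transcripts in the brain, 67.2% ± 4.05 in stroke blood and 58.3% ± 4.70 in sham blood, and the member Atp6v0a1 for 13.1% ± 5.15, 13.9% ± 1.88 and 17.2% ± 4.21. For subunits B, C, E, G and e, the isoforms in the set held 99.6% or more of the transcripts per kilobase as a mean of each group, and Atp6v1b1 and Atp6v1e2 had no count.

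**Figure D3:**
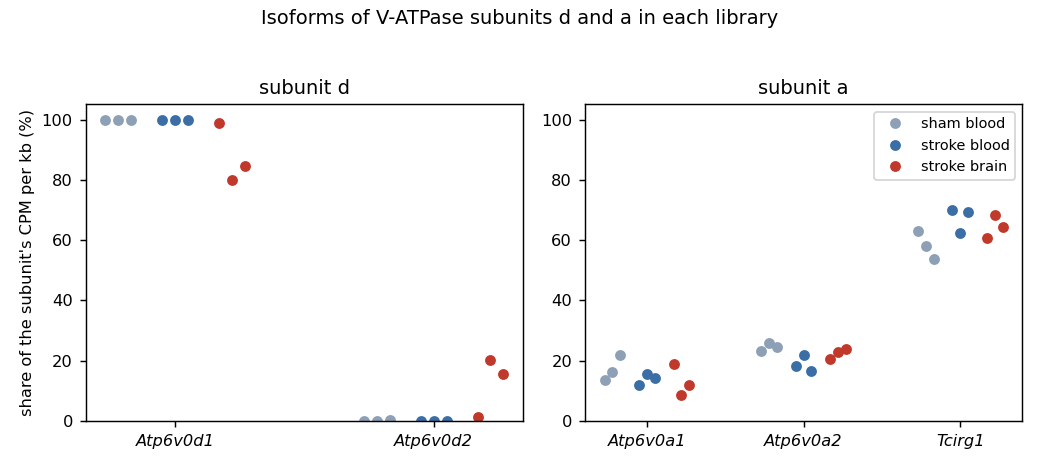
Share of each isoform in the CPM per kilobase of exon of V-ATPase subunit d (left) and subunit a (right), in percent, with a point for each library. Atp6v0d2 reaches 20.2% and 15.4% in brain replicates 2 and 3, 1.31% in replicate 1 and at most 0.164% in blood.

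Of the remaining V0 subunits, Atp6v0e (subunit e) was at 370, 428 and 416 CPM in the brain and 609, 487 and 781 CPM in stroke blood. It fell by 0.59 ± 0.18 on the log2 scale (edgeR adjusted p = 0.0334), a call lost with library size alone (0.0834), with the replicate number as a block (0.0507), and without any 1 of the libraries other than stroke blood replicate 2 (0.0738 to 0.0944). Atp6v0c, the proteolipid of the ring, was at 0.50 ± 0.21 and did not pass (edgeR adjusted p = 0.0967). It is uncertain, since Atp6v0c-ps2 is 99.8% identical over 465 bases and held up to 387 counts. Atp6v0a1 was at 0.31 and Atp6v0b, a second proteolipid of the ring, at -0.20.

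In the V1 sector, Atp6v1c1 and Atp6v1d rose. Atp6v1c1 encodes subunit C, which joins the sectors and is released when the pump comes apart (ENSMUSG00000022295, chromosome 15:38661933-38692446, plus strand). It was at 145, 193 and 185 CPM in the brain, 80.2, 88.8 and 83.8 CPM in stroke blood and 98.9, 87.7 and 99.4 CPM in sham blood. The brain libraries were above all blood libraries, and the log2 fold change was 1.08 ± 0.16 against stroke blood (edgeR adjusted p = 0.00129). It ranged from 1.01 to 1.20 without any 1 library and was 0.93 under upper-quartile scaling. Atp6v1d, subunit D of the rotor, was at 117, 158 and 132 CPM in the brain and 95.3, 80.1 and 79.4 CPM in stroke blood, without overlap (0.71 ± 0.17, edgeR adjusted p = 0.0116; 0.0573 without brain replicate 2). At an adjusted p below 0.05 its call held under the other tools, filters, scalings and left-out libraries. The other 6 V1 subunits did not pass, although Atp6v1b2 fell under upper-quartile scaling (edgeR adjusted p = 0.0446) and Atp6v1h rose with library size alone (edgeR adjusted p = 0.0332). The catalytic subunit A (Atp6v1a) was at 0.02, which turned to -0.13 under upper-quartile scaling and -0.01 with RLE, and its partner subunit B (Atp6v1b2) at -0.44, the stalk subunits E and G (Atp6v1e1 and Atp6v1g1) at -0.22 and 0.30, the rotor subunit F (Atp6v1f) at -0.32 and the regulatory subunit H (Atp6v1h) at 0.31. Of the accessory proteins, Atp6ap2, the prorenin receptor, rose from 175, 204 and 185 CPM in stroke blood to 275, 307 and 297 CPM in the brain (0.67 ± 0.14, edgeR adjusted p = 0.00740), a call that held without any 1 library. Atp6ap1 was at -0.02.

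Hydrolases and V-ATPase genes were then set against each other. Their median log2 fold changes between brain and stroke blood were 0.13 and 0.16, beside 0.06 for all genes, and the latter was 0.02 with Atp6v0d2 left out. Under upper-quartile scaling, where all genes stood at -0.09, the medians were -0.02 and 0.01. The mean log2(CPM + 1) of the hydrolases was 7.51, 7.72 and 7.87 in the brain libraries, 7.39, 7.49 and 7.32 in stroke blood and 7.49, 7.51 and 7.62 in sham blood. That of the V-ATPase genes was 7.06, 7.30 and 7.23 in the brain, 6.98, 6.88 and 7.03 in stroke blood and 7.03, 6.90 and 7.07 in sham blood. The hydrolase mean was higher in every brain library than in every stroke blood library, by a gap smaller than the shift between scalings, and overlapped sham blood. The V-ATPase mean was also higher in every brain library than in stroke blood, but this rested on Atp6v0d2. Without that gene it was 7.431, 7.497 and 7.463 in the brain, 7.445, 7.339 and 7.502 in stroke blood and 7.497, 7.351 and 7.523 in sham blood, and the groups overlapped. The difference between the means, hydrolases minus V-ATPase, was 0.45, 0.42 and 0.63 in the brain, 0.42, 0.61 and 0.29 in stroke blood and 0.46, 0.62 and 0.55 in sham blood, so its ranges overlapped among all groups. With Atp6v0d2 left out, this difference averaged 0.24 (brain), -0.027 (stroke blood) and 0.085 (sham blood) in place of 0.50, 0.44 and 0.54, and the ranges still overlapped.

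The brain libraries differed among themselves, and the groups of genes did so differently. Brain replicate 1 was the lowest brain library for 28 of the 39 members, including 10 of the 12 hydrolases and 12 of the 16 V-ATPase genes. Replicate 3 was the highest for 10 of the 12 hydrolases, and replicate 2 for 11 of the 16 V-ATPase genes. The summed level of the microglia markers had the order of the hydrolases, replicate 1 lowest and replicate 3 highest, and its part in that order was not tested.

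**Figure D4:**
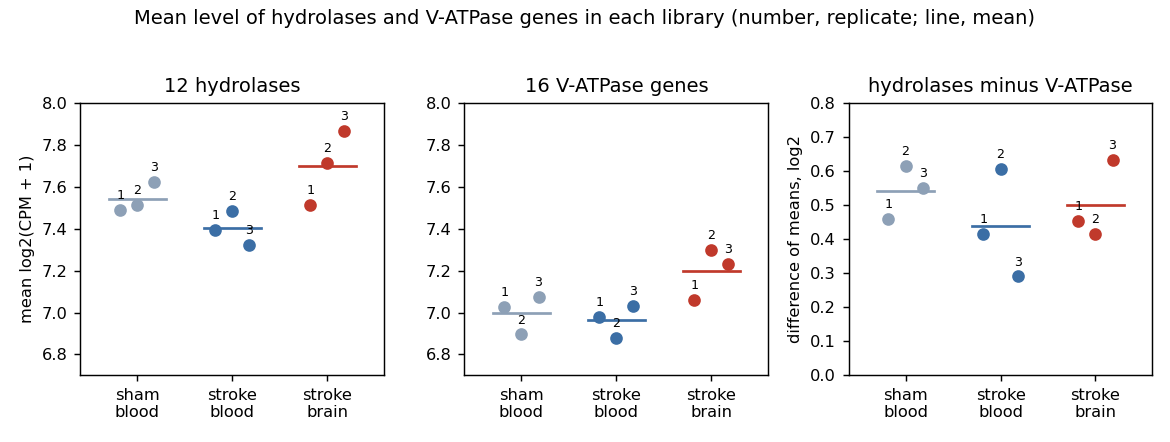
Mean log2(CPM + 1) over the 12 hydrolases (left) and the 16 V-ATPase genes (middle) in each library, and the difference between these means (right); numbers mark the replicate and lines the group means. Brain replicate 3 is highest for the hydrolases at 7.87 and replicate 2 for the V-ATPase genes at 7.30, and the differences of the 3 groups overlap. Atp6v0d2 is included, and without it the V-ATPase means of the brain and stroke blood overlap.

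None of the transcription factors of lysosomal genes passed the test in any comparison. Tfeb was at 103, 94.5 and 91.2 CPM in the brain, 96.7, 113 and 97.4 CPM in stroke blood and 88.2, 99.7 and 94.7 CPM in sham blood. Tfe3 was at 121, 112 and 99.5 CPM in the brain, 94.3, 109 and 122 CPM in stroke blood and 112, 115 and 108 CPM in sham blood. Mitf was lower, at 15.5, 7.51 and 10.8 CPM in the brain, 6.67, 6.54 and 15.3 CPM in stroke blood and 12.8, 8.75 and 6.53 CPM in sham blood. All ranges overlapped. The log2 fold changes between brain and stroke blood were -0.06 ± 0.15 for Tfeb, which turned to 0.10 with library size alone, 0.07 ± 0.16 for Tfe3, which turned to -0.08 under upper-quartile scaling, and 0.29 ± 0.40 for Mitf, and none passed (edgeR adjusted p of 0.797, 0.781 and 0.618). These are transcript levels, and where the proteins were in the cell was not measured.

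The E-box bound by these factors was looked for in the promoters of the members. RefSeq windows from 250 bases before to 50 bases after the start (GRCm38.p6) matched 32 of the 39 genes. TCACGTG, read on both strands, was in 8 of the 32 (25%) and in the windows of 1160 of 27025 genes (4.29%). It was found in Gaa, Gla, Glb1, Mcoln1, Atp6v0b, Atp6v0d1, Atp6v0e and Atp6v1a, that is in 3 of 11 hydrolases and 4 of 11 V-ATPase genes with a window. The shorter core CACGTG, which TCACGTG contains, was in the same 8 members and in 8.09% of all genes, and the 10-base palindrome of the CLEAR element, the extended E-box of lysosomal genes, was in no member and in 0.370% of all genes. Of the 8 members with TCACGTG, 2 rose in the brain (Gaa and Gla), 2 fell (Atp6v0d1 and Atp6v0e) and 4 did not pass. Of the 24 without it, 4 rose, 1 fell and 19 did not pass. Over all genes tested 17.5% rose and 13.1% fell, and these counts rest on few members. A stretch of 4 of these promoters is shown, each ending before the annotated gene and in the direction of transcription, with TCACGTG or CACGTGA in capitals, to set a gene that rose by a DEG call (Gla) and one that rose by less (Gaa) beside genes with the same letters that did not pass (Glb1 and Atp6v0b). The stretches lie at chrX:134601181-134601255 on the minus strand, chr11:119267795-119267854 and chr9:114401002-114401061 on the plus strand, and chr4:117887334-117887393 on the minus strand.
Gla: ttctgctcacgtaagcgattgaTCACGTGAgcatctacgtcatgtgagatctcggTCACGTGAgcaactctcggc
Gaa: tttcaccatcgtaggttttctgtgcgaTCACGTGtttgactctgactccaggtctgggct
Glb1: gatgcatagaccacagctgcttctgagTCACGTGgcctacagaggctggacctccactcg
Atp6v0b: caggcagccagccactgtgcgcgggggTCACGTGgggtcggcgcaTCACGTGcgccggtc
In Gla the matches begin 228 and 195 bases before the RefSeq start and each is followed by an A, so that the letters read the same on both strands, and in Atp6v0b they begin 37 and 19 bases before it. Gaa and Glb1 hold a single match, 141 and 49 bases before the start. In the 2 members that fell, the match began 4 bases before the start (Atp6v0d1), so that it ran across it, or after the start (Atp6v0e). The same letters thus stood in the windows of members that rose, that fell and that did not pass, at differing positions, and a match describes the sequence only.

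Stroke itself, read from blood, was addressed by comparing stroke blood with sham blood. None of the 38 members tested rose or fell with edgeR, and none did with DESeq2. Among all genes 0.00790% of 12664 rose and 0% fell with edgeR, and 0.986% of 11563 rose and 0.796% fell with DESeq2. At an unadjusted p below 0.05 there was 1 member, where 12.5% of all genes passed. This was Gusb, at 283, 287 and 273 CPM in stroke blood and 354, 378 and 402 CPM in sham blood (log2 fold change -0.46 ± 0.14, edgeR unadjusted p = 0.00878, adjusted p = 0.299). Its groups did not overlap, and neither did those of Lipa, which was higher in stroke blood at 0.25 ± 0.17 (edgeR adjusted p = 0.562); of all genes 9.77% were higher and 8.29% lower without overlap. The log2 fold changes of the 38 members ran from -0.73 (Cd63, SE 0.78) to 0.39 (Npc2, SE 0.20), with a median of -0.13 beside -0.03 for all genes. The medians were -0.18 for the hydrolases and -0.08 for the V-ATPase genes.

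The brain was also compared with sham blood, in which the brain libraries are the same as above. Atp6v0d2, with 0, 1 and 5 counts in sham blood against 37, 468 and 298 in the brain, again passed the filter through the brain alone, and no fold or test is given for it. Of the other 38 members 5 rose and 1 fell, against 12.1% and 7.68% of 13020 genes. With upper-quartile scaling 5 of the 39 rose and 3 fell, beside 1426 and 1234 of the 13020 genes. At an unadjusted p below 0.05 there were 15 of the 38, and 34.3% of all genes. The DEGs were Gla (log2 fold change 1.74 ± 0.15, edgeR adjusted p = 0.000558) and Cd63 (4.93 ± 0.44, 0.000682), against 9.75% of all genes that were DEGs upward and 3.67% downward. Atp6v1c1 rose by 0.87 ± 0.15 (edgeR adjusted p = 0.00866), below the DEG limit. These 3 calls held without any 1 library, sham blood replicates 1 and 3 included. Npc1 rose by 0.67 ± 0.14 (edgeR adjusted p = 0.0178), a call lost without sham blood replicate 2 or brain replicate 2 or 3 (0.0650 to 0.0707). Mcoln1 rose by 0.55 ± 0.16, at 52.3, 41.4 and 45.5 CPM in the brain and 33.7, 31.1 and 30.1 CPM in sham blood, but its adjusted p of 0.0462 with edgeR was lost without any 1 library (0.0710 to 0.145), without a filter (0.0974), with RLE (0.0507) and upper-quartile (0.0742) scaling, with all 9 libraries in 1 fit (0.0509) and with the replicate block (0.0788). Smpd1 fell by 0.69 ± 0.16 (edgeR adjusted p = 0.0203), lost without sham blood replicate 2 or 3 or brain replicate 2 or 3 (0.0620 to 0.0673). Psap had the lowest log2 fold change of the members, -0.98 ± 0.30, but did not pass with edgeR and TMM scaling (adjusted p = 0.0559). It did pass with edgeR under upper-quartile scaling (adjusted p = 0.0468) and with DESeq2 (adjusted p = 0.00974). Its sham blood libraries, at 6686, 4723 and 5247 CPM, lay above all brain libraries. Atp6v1b2 also fell under upper-quartile scaling (edgeR adjusted p = 0.0431). With edgeR and TMM, the genes that passed against stroke blood but not against sham blood were Gaa, Tpp1, Npc2, Atp6v0d1, Atp6v0e, Atp6v1d and Atp6ap2. In this order, their log2 fold changes against sham blood were 0.52, 0.48, -0.45, -0.87, -0.29, 0.47 and 0.47. Whether the comparisons differed at these genes was not tested. Atp6v0d1 did pass against sham blood with DESeq2 (adjusted p = 0.0279). With library size alone, Tpp1, Atp6v1d and Atp6ap2 did so (edgeR adjusted p of 0.0436, 0.0250 and 0.0339).

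Another 82 lysosomal genes outside the set gave the surroundings, of which 75 were tested between brain and stroke blood. Of these, 21 rose and 10 fell (31 and 6 with library size alone, 13 and 15 with upper-quartile scaling), 11 were DEGs upward and 5 downward, and their median log2 fold change was 0.29, beside 0.06 for all genes. As shares, 28.0% rose and 13.3% fell, where 17.5% and 13.1% of all genes did, and 14.7% and 6.67% were DEGs upward and downward, where 13.1% and 7.86% of all genes were. The list of 25 other hydrolases, which also holds the acetyltransferase gene Hgsnat, had 9 that rose and 4 that fell. Not all of those called are reported by name. Lgmn, the asparagine-specific protease legumain, was at 690, 605 and 749 CPM in the brain and 148, 161 and 149 CPM in stroke blood (2.19 ± 0.15, edgeR adjusted p = 2.64e-05).

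Further DEGs in that list included Pld3 (a lysosomal nuclease, 2.09), Acp2 (acid phosphatase, 1.36) and Arsb (arylsulfatase B, 1.11), which rose. Those that fell were Ids (iduronate-2-sulfatase, -1.35), Hgsnat (heparan acetyltransferase, not a hydrolase, -1.06) and Naaa (an acid amidase, -1.03). Igf2r, the large mannose-6-phosphate receptor that sorts hydrolases to lysosomes, rose by 2.14 ± 0.31 (edgeR adjusted p = 0.00112), from 3.77, 2.13 and 2.99 CPM in stroke blood to 13.9, 12.7 and 11.5 CPM in the brain. Of the 8 sorting genes 3 rose (37.5%) and none fell, where 17.5% of all genes rose and 13.1% fell. Among 17 further membrane proteins 5 rose (29.4%) and 2 fell (11.8%). Lamp1 (1.77), the endolysosomal cation channel Tpcn2 (1.11) and the nucleoside transporter Slc29a3 (1.10) were DEGs upward. Lamp1 was at 1038, 1109 and 1169 CPM in the brain and 326, 204 and 467 CPM in stroke blood, but at 195, 1377 and 817 CPM in sham blood, where it did not differ detectably (0.47 ± 0.56, edgeR adjusted p = 0.588).

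The controls of the pump and of TFEB gave smaller counts. Of 9 other V-ATPase isoforms 3 were tested and 1 rose (Atp6v0a2, 0.65); Tcirg1 was at 0.34 and did not pass. Of 7 assembly factors none rose and 1 fell (Vma21, -0.77). In the Ragulator, mTORC1 and TFEB control list 3 of 15 tested rose and 3 fell. Fnip2 (1.62), which acts with folliculin on the Rag GTPases, was the DEG upward and Lamtor4 (-1.35), a Ragulator subunit, the DEG downward.

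**Figure D5:**
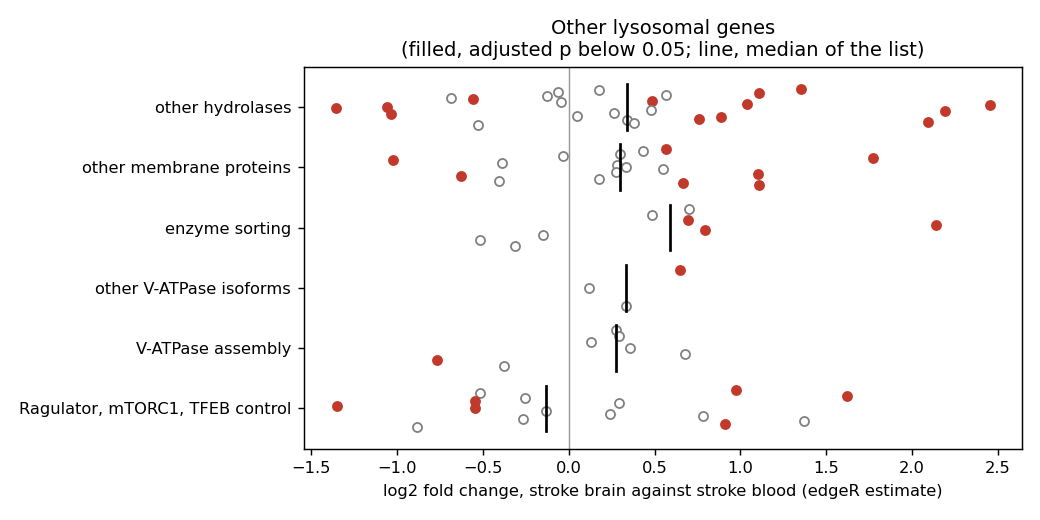
Log2 fold change between stroke brain and stroke blood of the 75 tested lysosomal genes outside the set, by list; filled points passed an adjusted p of 0.05 with edgeR and vertical lines are the medians. Among the hydrolases named, Ids lies at -1.35 and Lgmn at 2.19, and the median of the enzyme sorting list lies at 0.59 and that of the Ragulator, mTORC1 and TFEB control list at -0.13.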

How the data were processed

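RNA of sorted monocytes/macrophages was sequenced in 9 libraries, 3 each of sham blood, stroke blood and stroke brain, grouped by the titles in the labels. Per the study's methods and the submitters' processing notes, cDNA was made with the SMART-Seq HT kit, libraries were tagmented, and paired reads were mapped to GRCm38 with HISAT2 and counted with HTSeq. Tool versions, annotation release and strand setting are not given in the sources used here. The deposited values are raw counts per Ensembl gene, which the authors had not normalized. Of 53801 genes, 25402 had a count. Symbols, exon lengths and overlaps came from GENCODE M21, and promoters from RefSeq.

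Each comparison of 2 groups used edgeR 4.0.16 in R 4.3.3 (filterByExpr, TMM, quasi-likelihood test), tested on simulated data, where it called 134 of 200 changed genes and 9 unchanged genes among 12806 for brain versus stroke blood. The standard error is the log2 fold change over the root of its F statistic. Levels of different genes were compared per kilobase of merged exons. Near-identical copies were sought with BLAST 2.17.0 (at least 95% identity over 300 bases). Libraries of a group were distinct, since a chi-square test of their counts gave 26.2 to 152 per degree of freedom. Blood libraries came from separate mice and brain libraries from separate pools.

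The members, the gene lists and the tests were chosen with earlier results of these data known. Every member is named; library values are given for DEGs, transcription factors and the highest and lowest gene of each role, and for further called genes chosen after their values were seen, and of the other lysosomal genes up to 15 DEGs by size were to be named, together with a few genes picked after their values were seen. Some of these DEGs are not reported here, so the genes named are not a complete ranking. Alternatives were DESeq2 1.42.0, other filters and scalings, 1 fit of all 9 libraries, a block for the replicate number, a stricter adjusted p (0.01), a pseudocount of 0.1 CPM and each library left out.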

Additional observations from a re-analysis of the deposited data

How the results depend on the processing

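The calls of Gla, Cd63 and Atp6v1c1 in both brain comparisons, and of Npc2 and Atp6ap2 against stroke blood, held under all alternatives. Against stroke blood, 15 members rose and 1 fell with library size alone, 6 fell with upper-quartile scaling, and at an adjusted p below 0.01 there were 5 and 1. Leaving out 1 library gave 6 to 11 that rose and 1 to 4 that fell; these counts include Atp6v0d2, without which 8 rose (added after seeing the data). Against sham blood, 10 rose with library size alone, and 3 fell with DESeq2, without a filter, with upper-quartile scaling and with the replicate block, 2 with all 9 libraries in 1 fit, 0 at an adjusted p below 0.01 and 0 to 2 without 1 library. Of the other lysosomal genes, 13 rose with upper-quartile scaling and 11 to 26 without 1 library, and 6 fell with library size alone and with the replicate block and 6 to 12 without 1 library. The median of the V-ATPase genes between stroke and sham blood, -0.08, lay between -0.20 and -0.024 without 1 library. The difference of hydrolases and V-ATPase genes became 0.70 in sham blood and 0.64 in stroke blood with a pseudocount of 0.1 CPM, and 0.085, -0.027 and 0.24 in sham blood, stroke blood and brain with Atp6v0d2 left out, an alternative added after seeing the data. The signs of Tfeb (0.10 with library size alone), Tfe3 (-0.082 with upper-quartile scaling, -0.056 to 0.15 without 1 library) and Mitf (-0.011 to 0.76 without 1 library) turned, all without passing. The cause of these changes was not tested.

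With the replicate number as a block, 9 members rose and 2 fell against stroke blood, where Atp6v0e was lost (adjusted p = 0.0507). Correlations of same-numbered libraries lay between -0.08 and 0.08, and those of libraries with different numbers between -0.10 and 0.14. A brain library pools 5 mice and a blood library is 1 mouse, so this check cannot show whether same-numbered libraries share mice. The sources used here do not say. With 3 libraries a group an exact permutation test cannot go below p = 0.10, and brain pools average 5 mice, which limits the spread seen.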
